A study of Capra hircus with 29 samples.

Results

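The cytosolic ribosomal proteins of goat oocytes were described here, together with the further gene rows that carry the same symbols. Members were taken from the gene table by symbol: RPL or RPS followed by a number and, where present, one of the endings A, X, Y, L, AL or L1, plus the stalk proteins RPLP0 to RPLP2 and RPSA. Of the 21343 genes in the table, 260 matched, under 79 symbols (47 of the large and 32 of the small ribosomal subunit). A symbol had 1 row in 22 cases and several rows in 57 cases, which together made 238 rows.

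Expression was measured by RNA-seq in 29 oocyte samples of the Ji'ning grey goat, a domestic breed. The goats fell into a high and a low fertility group by litter size, set at more than 3 and fewer than 2 kids in the series labels and at 3 or more and 2 or fewer kids in the study's methods. Oocytes came from large, medium and small follicles, which gave the groups HLO, HMO and HSO in the high and LLO, LMO and LSO in the low fertility group. Each group had 5 samples, apart from HSO with 4 (replicates 1, 3, 4 and 5). No group was treated, and all came from 1 breed. Per the study's methods, which describe the combining for the high fertility group and the dividing for both, oocytes of 1 follicle class were first combined over goats and then divided into samples of a few oocytes each. Read so, the samples of a group are parts of a common pool and not separate goats, and p-values measure the spread between these parts, which may be partly technical.

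Each ribosome carries a single copy of nearly every ribosomal protein, so a cell needs the proteins in about equal numbers. Growing oocytes fill their cytoplasm with ribosomes that the early embryo later uses. The mRNAs are short and abundant, and the genome of mammals holds many processed copies of them, most without introns and many without a known product. Reads that matched the genome in several places were dropped by the authors, who gave 1 FPKM value (fragments scaled to transcript length and to sequencing depth) per gene row and sample. A read that fits a gene and its copy equally well was therefore left out, and how far this moved a value of a given row was not tested.

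Within a symbol the rows were ranked by mean FPKM over all samples. The row with the highest mean is called the leading row, and those below it are called further rows, counted on as the second, the third and so on. The 22 single rows held 31.6% of all ribosomal protein FPKM, the 57 leading rows 65.9% and the 181 further rows 2.48%. Of the further rows, 69 were listed at 0 in every sample and 47 had a mean above 1 FPKM. The table carries a gene description for the leading row in 52 of the 57 symbols with several rows. The leading row was the highest of its symbol in every sample for 51 of the 57 symbols. Its share of the symbol's mean FPKM had a median of 98.9%, and it was under 90% in 12 symbols. Of the 260 rows, 142 passed the filter used for the fits over all samples (above 0.5 FPKM in at least 4 samples): 20 of 22 single rows, 57 of 57 leading rows and 65 of 181 further rows.

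**Figure D1:**
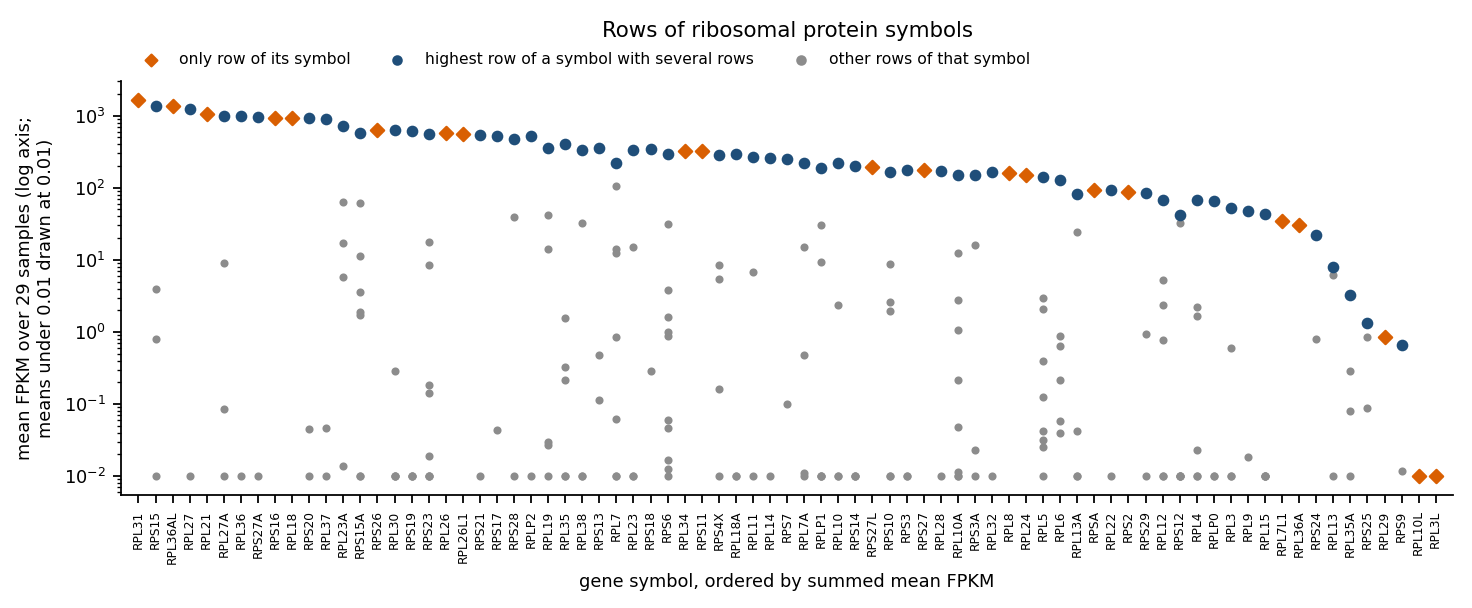
Mean FPKM over 29 samples (log axis) of ribosomal protein rows, with 1 column per symbol shown in order of summed mean FPKM. Diamonds are single rows ("only row"), blue circles leading rows and grey circles further rows, and means under 0.01 are drawn at 0.01. Most further rows lie far under the leading row of their symbol, and RPL7, RPS12, RPL13 and RPS25 have further rows close to it.

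The highest mean FPKM was that of RPL31, at 1653 ± 717 (SD, n = 29), a protein at the exit of the peptide tunnel. RPS15, a protein of the small subunit head, followed with 1368 ± 869 FPKM. RPL36AL had 1363 ± 757, RPL27 1237 ± 449 and RPL21 1051 ± 190 FPKM. Mean ± SD overlapped between neighbours in this order, and these rows were not tested against each other. RPL21, a large subunit protein, was the steadiest of them, with a range from 704 FPKM in LLO 5 to 1477 in HMO 3, and RPS15 was the least steady, with a range from 29.03 to 3039.8 FPKM.

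At least 8 rows were listed for 6 symbols. RPS6, the small subunit protein that S6 kinase phosphorylates, had 11 rows. Its leading row had a mean of 290.8 FPKM and the sum over its rows was 330.1 FPKM. RPL10A (9 rows) had 152 FPKM in the leading row and 169 in the sum, and RPL5 (9 rows), a carrier of 5S rRNA, had 139.7 and 145 FPKM. RPS23 (9 rows), a protein of the decoding centre, had 562 and 588 FPKM. RPS15A (8 rows) had 579.7 and 659 FPKM. In RPL7 (8 rows) the leading row held 221 of 353 FPKM, or 62.7%. The largest further row of any symbol was a row of RPL7 (ENSCHIG00000004863) with a mean of 104 FPKM and a range from 1.399 to 188 FPKM, named after its values were seen.

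A few symbols were low over all their rows. RPL3L, a muscle form of RPL3, was listed at 0 in 29 of 29 samples, and RPL10L, a testis form of RPL10, in 28 of 29, with 0.0938 FPKM in HMO 1. Further low symbols were named after their values were seen. RPS9 ranged from 0 to 3.09 FPKM, RPL29 from 0 to 2.53, RPS25 (3 rows summed) from 0 to 7.51 and RPL35A (4 rows summed) from 0.529 to 11.2. All 4 proteins are standard parts of the ribosome, so their values are given here only as listed. The table also holds 41 rows outside the rule, with LOC numbers as symbols, that are described as ribosomal proteins. Together they had a mean of 664 FPKM, and 12 of them had a mean above 10 FPKM. Rows described as RPL29, RPS25 and RPL35A were among them, with means of 0.0119, 6.46 and 0.460 FPKM.

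Some ribosomal proteins have a second form encoded by another gene, and here the forms differed in balance. RPL36AL exceeded RPL36A in 29 of 29 samples, with a ratio of FPKM between 23.3 and 79.8 (median 46.0). RPL26L1 and RPL26 were near each other, with mean FPKM of 567 ± 178 and 569 ± 278 (SD, n = 29) and RPL26L1 higher in 16 of 29 samples. RPS27L, a form induced by p53 in other cells, was higher than RPS27 in 17 of 29 samples, at 195 ± 55.5 against 175 ± 90.2 FPKM. RPL7L1, a relative of RPL7 that works in ribosome assembly, stayed under RPL7 in 29 of 29 samples, at 0.00520 to 0.227 of its summed FPKM.

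The balance of the last 3 pairs was not steady across samples. In LLO 2 and LLO 5 the ratio of RPL26L1 to RPL26 was 6.10 and 5.90, against a median of 1.02, and the ratio of RPS27L to RPS27 was 8.998 and 15.2, against a median of 1.14. In both samples RPL26 (40.3 and 41.4 FPKM) and RPS27 (34.0 and 14.2 FPKM) were low, whereas RPS27L held 306 and 215 FPKM. Of the forms without a pair among the member symbols, RPS4X had 284 ± 90.5 FPKM and RPL22 92.7 ± 29.6 FPKM. Rows outside the rule, with LOC numbers as symbols, are described as RPL22-like 1, with means of 10.1 and 0.0765 FPKM.

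**Figure D2:**
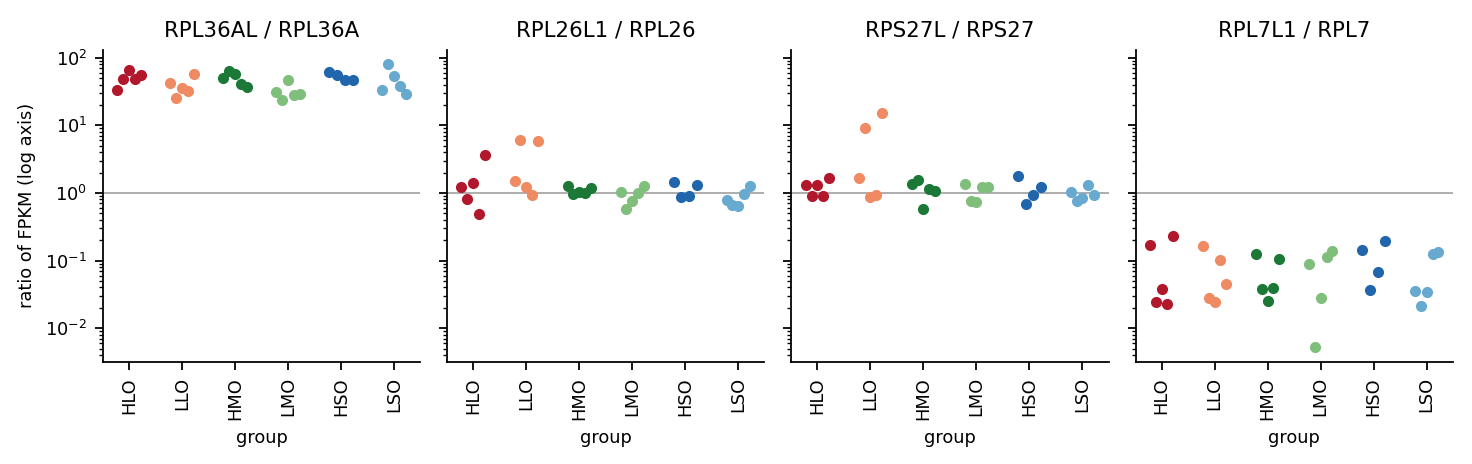
Ratio of FPKM of each second form to its partner (summed over the partner's rows; log axis) in every sample, by group; each point is 1 sample and the grey line marks equal FPKM. RPL36AL exceeded RPL36A by 23.3 to 79.8 times in every sample, and LLO 2 and LLO 5 stand above the other samples in RPS27L to RPS27.

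In total the 260 rows held 2.06 to 10.8% of the FPKM of a sample. Summed FPKM was 31425 ± 6957 (SD, n = 5) in HLO, 23157 ± 12131 in LLO (n = 5), 33764 ± 5016 in HMO (n = 5), 28822 ± 4266 in LMO (n = 5), 29681 ± 4969 in HSO (n = 4) and 31818 ± 5317 in LSO (n = 5). The 6 groups overlapped. The 2 lowest samples were LLO 5 with 7950.4 and LLO 2 with 13856 FPKM, and all others held at least 22086 FPKM. FPKM are relative to the RNA of a sample, so these sums give no amount per oocyte. They are no exact share either, since the FPKM sum of all genes differed between samples. LMO 2 held 24126 FPKM, or 10.8% of its total, and HMO 1 held 31137 FPKM, or 6.35%. An order of samples or groups by summed FPKM therefore need not be their order by share. In bulk samples, fewer cells of a type relative to other cells and less RNA per cell cannot be told apart.

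LLO 5 and LLO 2 stood apart across the family. Over the 77 leading and single rows that passed the filter, the median ratio to the row's median over all samples was 0.197 in LLO 5 and 0.310 in LLO 2. In the other 27 samples it lay between 0.768 and 1.35. LLO 5 was the lowest of all samples in 43 of the 77 rows and LLO 2 in 12. Yet 7 of the 77 rows lay above their median in LLO 5 and 15 in LLO 2, with 5 in both. These 5 were RPS27L, RPS3, RPS29, RPS9 and RPL29, named after their values were seen. RPS9 and RPL29 are among the low symbols given above, so their ratios rest on low values. Summed oocyte markers (12 rows, of which 1 DAZL row was at 0 throughout) ranged from 643 to 4736 FPKM in LLO and from 1149 to 4736 in HLO, so the labelled cell type was present in every sample. Granulosa markers (11 rows) summed to 4.398 to 12.2 FPKM in LLO and 6.37 to 17.4 in HLO, mostly from SERPINE2, with AMH and NR5A1 at 0 throughout and FSHR at 0.283 at most.

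**Figure D3:**
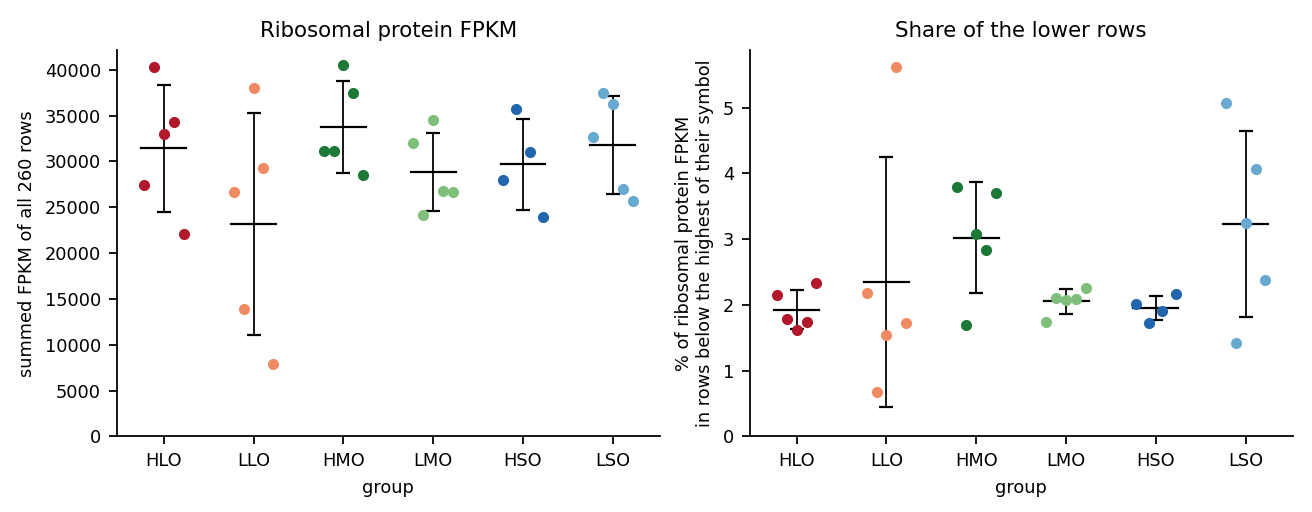
Left, summed FPKM of all 260 rows; right, the share of it held by rows below the leading row of their symbol. Each point is 1 sample, the line is the group mean and the bar the SD on each side of it. LLO 2 and LLO 5 are the lowest on the left (13856 and 7950.4 FPKM), and on the right 8 samples lie above 2.8%.

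In the large follicles, the comparison of HLO with LLO asked which ribosomal protein rows differed with fertility. On log2(FPKM + 1), with limma's moderated test, a row was called when p was under 0.05 without adjustment and the absolute log2 fold change was above 1. By these limits 8 of 131 member rows were higher in HLO and 0 were higher in LLO. Of all genes tested, 1.78% were called higher in HLO and 0.516% higher in LLO. Among all genes whose symbol has several rows, members included, 37 of 1230 were called (3.01%), 28 of them higher in HLO. No member passed a Benjamini-Hochberg adjusted p of 0.05, with 10 rows at an unadjusted p under 0.05 and 0.828 as the smallest adjusted p of limma.

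RPS15 had 1548, 3015, 2307, 2258 and 1058 FPKM in HLO 1 to 5. In LLO 1 to 5 it had 1445, 61.3, 30.4, 1485 and 29.03 FPKM. LLO 2, 3 and 5 were low and LLO 1 and 4 lay within the range of HLO, so the groups overlapped. The log2 fold change was 3.53 ± 1.09 (SE).

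RPL28, a large subunit protein, behaved alike. It had 175, 303, 223, 238 and 192 FPKM in HLO, and 184, 38.3, 17.9, 168 and 26.2 FPKM in LLO, with a log2 fold change of 1.96 ± 0.67 (SE).

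RPL9, a protein near the base of the stalk, was low in LLO 2, 4 and 5 (4.86, 6.64 and 3.16 FPKM) and lay between 45.8 and 88.5 FPKM in HLO. Its log2 fold change was 2.06 ± 0.79 (SE). RPL36AL had 858 to 2516 FPKM in HLO and 139 to 2137 in LLO, with a log2 fold change of 1.66 ± 0.71 (SE). Called too were further rows of RPL38 (ENSCHIG00000012246), RPS15 (ENSCHIG00000003203) and RPS28 (ENSCHIG00000009632), with log2 fold changes of 2.40, 1.48 and 2.46. Of these 3, 1 would have passed the filter on the LLO samples alone. The other 2, those of RPS15 and RPS28, needed HLO samples to pass.

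By kind of row, 2 of 20 single rows, 3 of 57 leading rows and 3 of 54 further rows were called. The median log2 fold change was 0.99 over single rows, 0.64 over leading rows and 0.03 over further rows, beside -0.09 over all genes tested. LLO 2 and LLO 5 carried much of this. Without both, 1 member row was called, the median over single rows was 0.016 and that over all rows of symbols with several rows turned from 0.43 to -0.22. None of the 8 rows stayed called there, and all kept their direction, with log2 values of 2.23 for RPS15, 1.41 for RPL28 and 2.32 for the further row of RPL38. With 1 sample left out at a time, the count fell to 3 without LLO 5 and to 5 without LLO 2, HLO 2 or HLO 4, and rose to 27 without LLO 3, to 19 without LLO 1 and to 13 without LLO 4.

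In the medium follicles, HMO was compared with LMO. Of 135 member rows tested, 18 were higher in HMO and 1 was higher in LMO, beside 2.85% and 0.548% of all genes tested. Among all genes whose symbol has several rows, members included, 80 of 1254 were called (6.38%), 77 of them higher in HMO. All 18 members called higher in HMO were further rows, out of 58 tested. Of these 18, 11 would have passed the filter on the LMO samples alone, 7 needed HMO samples to pass, and 2 of the 7 had no LMO sample above 0.5 FPKM. With no filter on low values, 18 member rows were again higher in HMO and 1 in LMO, out of 181. Among the 57 leading rows 0 were called, with 2 at an unadjusted p under 0.05 in limma. Among the 20 single rows 1 was called. No member passed an adjusted p of 0.05, with 25 rows at an unadjusted p under 0.05 and a smallest adjusted p of 0.0636 in limma. With array weights 30 member rows passed that limit, and 1 passed with median-of-ratios factors and 1 with quantile normalization. Member rows passed it with a replicate block too, as counted in the last paragraph.

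The second row of RPS10 (ENSCHIG00000008222) had the smallest p. RPS10 is a small subunit protein near the mRNA entry. This row had 28.0, 2.85, 25.6, 21.7 and 13.0 FPKM in HMO 1 to 5, and 1.99, 1.33, 0.191, 0.688 and 1.16 FPKM in LMO. HMO 2 was far lower than the other HMO samples, though still above the LMO samples, and the log2 fold change was 2.99 ± 0.51 (SE, adjusted p = 0.0636 by limma).

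The third row of RPS23 (ENSCHIG00000006745) likewise had its lowest HMO value in HMO 2. It had 29.1, 0.463, 33.7, 28.9 and 18.05 FPKM in HMO and at most 0.457 FPKM in LMO, with a log2 fold change of 3.59 ± 0.72 (SE). It passed the filter through HMO 1, 3, 4 and 5 alone. In the leading row of RPS23, in contrast, HMO held 432, 642, 669.8, 532 and 419 FPKM and LMO held 576, 526, 839.7, 476 and 539 FPKM, so the groups overlapped.

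The third row of RPL19 (ENSCHIG00000011685) had the largest log2 fold change, 3.75 ± 0.84 (SE). RPL19 is a large subunit protein that reaches across to the small subunit. The row had 48.5, 0.235, 27.0, 28.1 and 54.4 FPKM in HMO and 0 to 0.880 FPKM in LMO. HMO 2 lay within the range of LMO, so these groups overlapped too.

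The third row of RPS15A (ENSCHIG00000011047) and the fourth row of RPL7 (ENSCHIG00000012399) followed, with log2 fold changes of 3.64 ± 0.83 and 3.12 ± 0.80 (SE). In RPS15A the row was listed at 0 in HMO 2, at 23.0 to 47.2 FPKM in the other HMO samples and at 0.557 or less in LMO. Further called rows belonged to RPS6, RPS23, RPS15A, RPL7, RPL7A, RPL13A, RPLP1 and RPS3A, with log2 fold changes from 1.02 to 2.94. Across all further rows tested the median log2 fold change was 0.44, beside 0.17 over leading rows, 0.16 over single rows (-0.12 after quantile normalization) and -0.07 over all genes tested. The groups did not overlap in 4 of the 18 called rows. The share over all genes was not taken, so this count has no background to be read against.

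RPSA, the laminin receptor that is also a small subunit protein, was the row higher in LMO. It had 120.0, 83.0, 26.4, 23.0 and 59.8 FPKM in HMO, and 130.0, 118, 76.3, 271 and 231 FPKM in LMO. HMO 3 and 4 were low and LMO 4 and 5 high, the groups overlapped, and the log2 fold change was -1.51 ± 0.52 (SE, adjusted p = 0.376 by limma).

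When the rows of a symbol were summed before the fit, the 19 calls between HMO and LMO became 1, that of RPSA. Thus the sums of the symbols with called further rows were not called. Without HMO 1, 3 and 4 together, 4 member rows were called.

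**Figure D4:**
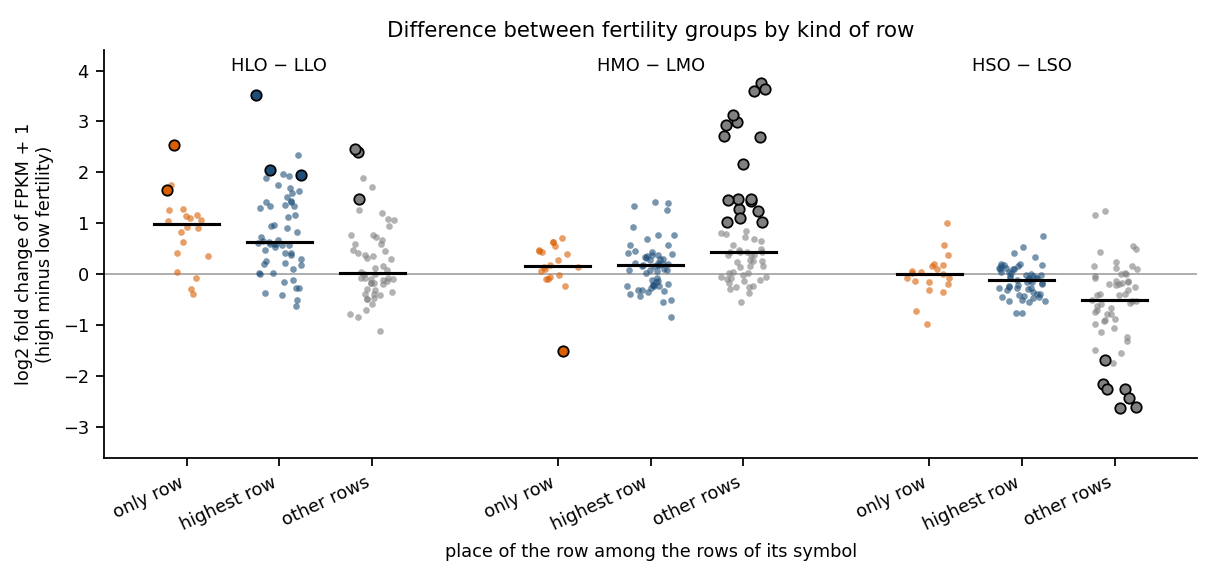
Log2 fold change of FPKM + 1, high minus low fertility, for each member row tested in the 3 follicle classes, split into single ("only row"), leading ("highest row") and further ("other") rows. Bars are medians and outlined points are the called rows. All 18 rows called higher in HMO and all 7 called higher in LSO are further rows.

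In the small follicles, HSO was compared with LSO. Of 133 member rows tested, 7 were higher in LSO and 0 higher in HSO, beside 0.776% and 0.919% of all genes tested. Among all genes whose symbol has several rows, members included, 40 of 1233 were called (3.24%), 26 of them higher in LSO. All 7 members called higher in LSO were further rows, out of 57 tested. Of these, 4 would have passed the filter on the HSO samples alone and 3 needed LSO samples to pass, and with no filter on low values 4 member rows were called. Among 56 leading rows and 20 single rows 0 were called, and none of these had an unadjusted p under 0.05 in limma. No member passed an adjusted p of 0.05, with 10 rows at an unadjusted p under 0.05 and a smallest adjusted p of 0.880 in limma.

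The second row of RPS6 (ENSCHIG00000008209) had 5.94, 4.91, 4.60 and 6.68 FPKM in HSO 1, 3, 4 and 5. In LSO 1 to 5 it had 147, 2.74, 60.3, 96.8 and 7.67 FPKM. LSO 1, 3 and 4 were high, and LSO 2 lay under all HSO samples. The log2 fold change was -2.26 ± 0.98 (SE).

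RPS3A is a small subunit protein, and its second row (ENSCHIG00000008355) had 2.66 to 3.78 FPKM in HSO and 72.2, 3.603, 25.8, 50.0 and 3.97 FPKM in LSO. The log2 fold change was -2.15 ± 0.80 (SE). The other 5 rows were those of RPS23, RPS10, RPS15A, RPL7 and RPL19, with log2 fold changes between -2.63 and -1.68. Among them the third row of RPL19 had 0.347 to 1.39 FPKM in HSO and 65.7, 0.128, 22.7, 51.2 and 0.548 FPKM in LSO.

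Without LSO 1, 3 and 4 together 0 rows were called, with 0 calls likewise without LSO 1 alone or LSO 4 alone. The count was 2 to 4 without any 1 HSO sample (2 without HSO 1, 3 without HSO 3, 2 without HSO 4 and 4 without HSO 5) and 3 without LSO 3, and it rose to 17 without LSO 2 and to 15 without LSO 5. With 1 row per symbol, 0 symbols were called. The median log2 fold change was -0.50 over further rows, -0.11 over leading rows, 0.01 over single rows and -0.01 over all genes tested.

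In 9 of the 65 further rows tested over all samples, the samples with high values were the same from row to row. For each gene tested over all samples, the samples were ranked on log2(FPKM + 1), and the widest gap between neighbours was taken where it was at least 1 and left at least 3 samples on each side. This measure was chosen after the values were seen and is given with no test. Of 142 member rows, 14 had such a gap (9.86%), beside 226 of 9692 genes (2.33%). In 9 member rows the gap set the same 8 samples apart from the other 21, namely HMO 1, 3, 4 and 5, LSO 1, 3 and 4, and LLO 4. These 9 were all further rows, of 7 symbols, and 34 of the 9692 genes showed this set. So 6.34% of member rows and 0.351% of genes tested divided the samples in this way. Of the 34 genes, 25 were no members. Members included, 22 of the 34 shared their symbol with another row, so the set was not particular to ribosomal proteins.

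The 9 member rows were those of RPL7, RPL19, RPS3A, RPS6 and RPS10, with 1 each, and RPS15A and RPS23, with 2 each. In the third row of RPS15A the 8 samples held at least 23.0 FPKM and the other 21 at most 0.557. In the third row of RPS23 the limits were 18.05 and 0.684 FPKM, and in the third row of RPL19 they were 22.7 and 1.39 FPKM. In the second row of RPS6 they were 60.3 and 7.67 FPKM. The HMO sample outside the set was HMO 2 and the LSO samples outside it were LSO 2 and 5, while LMO, HSO and HLO held no sample of the set.

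LLO 4 had the highest value of all 29 samples in the rows of RPS6 (210.2 FPKM), RPL19 (102), RPS3A (97.4) and RPL7 (64.9 FPKM). These rows were not called between HLO and LLO. In HLO the second row of RPS6 had 3.003 to 5.04 FPKM, and in LLO 1, 2, 3 and 5 it had 5.98, 1.10, 6.22 and 1.09 FPKM.

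The leading rows of the 7 symbols did not divide the samples in this way. In LLO 4 the leading row of RPS6 held 218 FPKM, against 393, 101, 344 and 58.1 FPKM in LLO 1, 2, 3 and 5. Further rows took 5.62% of the ribosomal protein FPKM of LLO 4, 2.84 to 3.8005% in HMO 1, 3, 4 and 5 and 3.24 to 5.06% in LSO 1, 3 and 4. In the other 21 samples the share was 0.681 to 2.38%.

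Among the genes with the same set of samples was HSD17B2, a steroid dehydrogenase, named after its values were seen. It had at least 7.44 FPKM in the 8 samples (41.7 in LLO 4) and at most 0.143 in the other 21. Granulosa markers summed to 4.41 to 11.7 FPKM in HMO and 3.83 to 25.9 in LMO, and to 7.14 to 13.9 in HSO and 4.75 to 22.2 in LSO. STAR, which carries cholesterol into mitochondria, was lower in HMO (8.54 to 15.6 FPKM) than in LMO (19.8 to 39.0 FPKM), with a log2 fold change of -1.04 ± 0.31 (SE). Leukocyte markers (8 rows) summed to 2.29 to 7.84 FPKM over all samples, mostly from LCP1 and CORO1A, with TYROBP and CD14 at 0. Of 10 oocyte markers tested between HMO and LMO, OOEP alone was called, higher in HMO (log2 fold change 1.53 ± 0.70 SE). Only 3 of the 10 had a log2 fold change above 0, and their median was -0.16. DAZL had -0.93 ± 0.27 (SE, unadjusted p = 0.0046 by limma) and was not called, since its change was under the limit. ALAS2, the erythrocyte marker in the table, reached 0.464 FPKM at most. The part of other cells in the further rows was not tested.

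**Figure D5:**
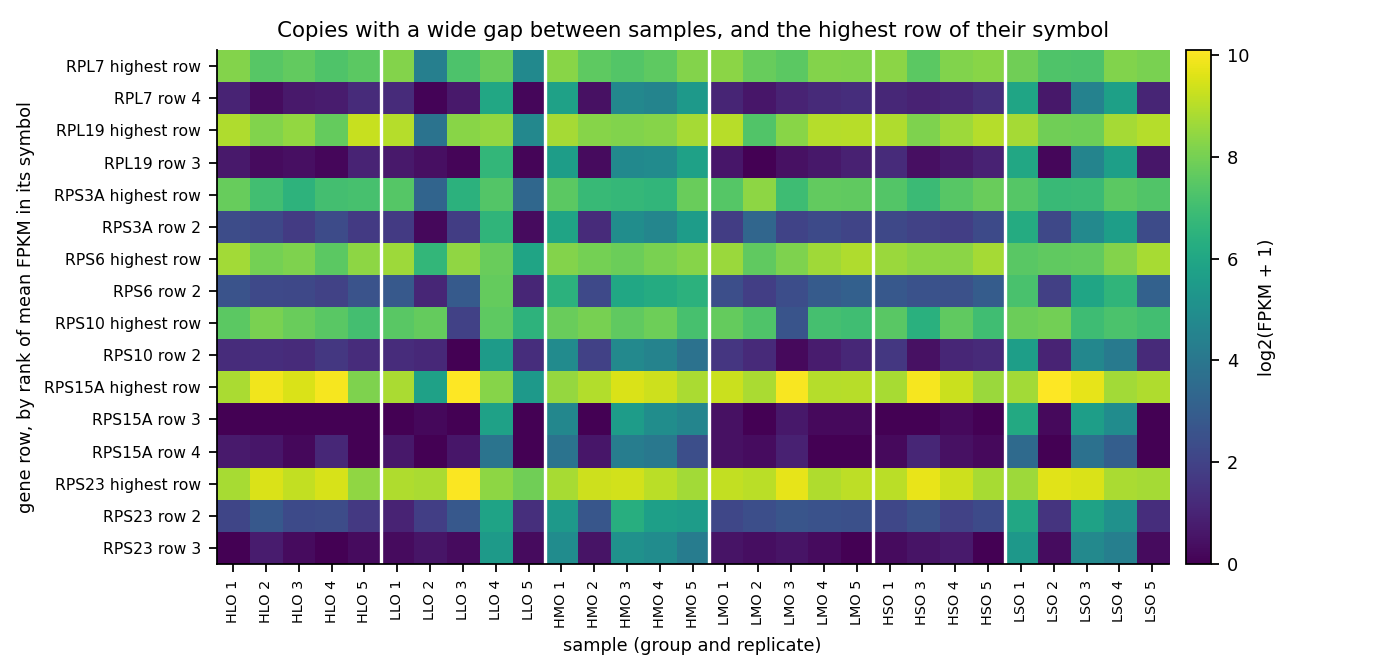
Log2(FPKM + 1) of the 9 further rows with the same gap between samples, each under the leading row of its symbol, in all 29 samples; white lines part the groups. The further rows are brighter in LLO 4, HMO 1, 3, 4 and 5 and LSO 1, 3 and 4 than elsewhere, whereas the leading rows show no such division.

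Another pattern lay in the replicate numbers, which the labels give without saying what they mark. Samples numbered 3 had the highest median of the 5 numbers in 36 of the 77 leading and single rows (46.8%), beside 7.87% of all genes tested. Those numbered 5 had the lowest median in 39 of 77 rows (50.6%), beside 11.7% of all genes. RPL36AL had 2137 to 2658 FPKM in the 6 samples numbered 3, 783 to 1215 in those numbered 1 and 139 to 946 in those numbered 5. RPL7L1 ran the other way, with 13.1 to 84.9 FPKM in number 1, 0.893 to 11.2 in number 2 and 5.88 to 12.6 in number 3. RPL5 had 159 to 262 FPKM in number 1, 37.3 to 104 in number 2 and 49.2 to 77.3 in number 3.

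The stalk proteins bind the elongation factors, and 2 of the 3 differed widely between numbers. RPLP2 had 659 to 935 FPKM in the 6 samples numbered 1. In those numbered 3 it had 532 in HLO, 3.38 in LLO, 264 in HMO, 6.20 in LMO, 35.5 in HSO and 19.5 FPKM in LSO. Its SD of log2(FPKM + 1) over all samples was 2.11, the largest of any leading row.

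RPLP0, the base of the stalk, had 90.9 to 209.9 FPKM in number 1 and 1.61 to 13.1 FPKM in number 3. RPLP1 was steadier, at 97.3 to 215 FPKM in number 3 and 158 to 307 FPKM in number 1. RPS15 was likewise low in LLO 3, LMO 3, HSO 3 and LSO 3 (30.4, 31.3, 96.3 and 140.5 FPKM), though not in HLO 3 or HMO 3 (2307 and 1117 FPKM). In each fertility comparison both groups held the same numbers, except that HSO lacked number 2. What lay behind the numbers was not tested.

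Across the 3 stages, with fertility as a covariate, 6 of 142 member rows reached p under 0.05 without adjustment (F-test of limma), beside 1.66% of all genes. None passed an adjusted p of 0.05. The rows were the leading rows of RPL10A, RPL7 and RPS27A, which is made as a fusion with ubiquitin, the second row of RPL10A, the third row of RPL10A and the second row of RPS13. The leading row of RPL10A had a mean of 138 FPKM in HLO, 101 in LLO, 146 in HMO, 180.2 in LMO, 176 in HSO and 178 in LSO. LLO 2 and LLO 5 held 4.45 and 3.39 FPKM of it, and every other sample held at least 72.3 FPKM. The count was 0 without LLO 2 (as many at an unadjusted p under 0.05) and 1 without LLO 5, 2 without HLO 5 and 3 without LMO 3. It was 10 without LLO 1, 17 without LLO 3 and 25 without LLO 4.

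The interaction asked whether the fertility difference changed between stages. Here 20 of 142 member rows had an unadjusted p under 0.05, beside 7.89% of all genes and 9.43% of those with several-row symbols. They were 17 of 65 further rows, 3 of 57 leading rows and 0 of 20 single rows. The 9 further rows with the set of 8 samples given above were all among the 17, so this count is no separate result. Outside that set the third rows of RPS15A and RPS23 had at most 0.557 and 0.684 FPKM. They met the filter mainly through the set, and how many other rows did was not counted. No member row passed an adjusted p of 0.05 in limma, with 0.192 as the smallest, that of the third row of RPS23. The leading rows were those of RPL9, RPL28 and RPS25. RPL9 was called higher in HLO than in LLO, and it had 20.8 to 40.5 FPKM in HMO and 43.0 to 64.9 FPKM in LMO without being called there (log2 fold change -0.83). With 1 row per symbol 3 symbols remained in the count. Without 1 sample it ranged from 15 to 43, with 43 without LLO 3, 35 without LLO 4 and 34 without LLO 1.

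Ribosomal proteins outside the rule were read beside the members. FAU, which encodes RPS30 fused to a ubiquitin-like protein, had 2 rows above 0, with means of 5888 and 2785 FPKM, both above every member. RACK1, a scaffold on the small subunit, had 117 FPKM in its highest row. Of the 4 rows of this list that were tested 0 were called in any fertility comparison, and 0 of them had an unadjusted p under 0.05 in limma. Elongation factors and other genes of the same mRNA class, whose 5′ ends carry a terminal oligopyrimidine tract, had 21 rows tested. TPT1 was called higher in HLO (log2 fold change 1.62 ± 0.64 SE), and a further row of NACA (ENSCHIG00000015473) was called higher in HMO (2.57 ± 0.60 SE) and higher in LSO (-1.87 ± 0.80 SE).

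That NACA row was the 1 NACA row that showed the set of 8 samples given above. The leading NACA row held 154 to 749 FPKM. Of the ribosome assembly genes, 23 were tested in the large follicles and 24 in each of the others. DKC1, the pseudouridine synthase of rRNA, was called higher in LLO (-1.01 ± 0.45 SE) and 0 were called in the other comparisons, none of them at an unadjusted p under 0.05 in limma.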

How the data were processed

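Reads were mapped to the goat genome by the authors, limited to unique matches with few mismatches and cleared of duplicates with picard, and the deposited FPKM values were computed with Cufflinks and the Ensembl annotation. The genome build is not given in the sources used here. The table holds FPKM and no counts, so the number of reads behind a value was not known and no counting interval is given. Whole-table FPKM sums were 222697 (LMO 2) to 490048 (HMO 1). Columns were assigned by name, and 1 column without a matching sample was not used. No pair of samples held identical values.

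Fits used limma 3.58.1 (R 4.3.3) on log2(FPKM + 1), with a trend. All genes entered that exceeded 0.5 FPKM in 4 or more samples of a comparison. A fold change on this scale understates changes of low genes. Stages and interaction were tested by F-tests over all 29 samples. The fits were tested on simulated data. Alternatives were other pseudocounts and filters, median-of-ratios and quantile scaling, array weights, a replicate block, 1 row per symbol, 1 fit over all samples and each sample left out. Leaving out several samples together was chosen after seeing the data. The members and lists were chosen with earlier results of these data known. Named rows were, in each fertility comparison, all called members up to 10, otherwise the 5 of largest change in each direction, then the 5 highest rows, the symbols with the most rows (6, as the last place was tied), paralogs and their partners, single rows under 0.5 FPKM, the 3 most variable rows, the stalk proteins with RPSA, and called members of the lists. Other names were chosen after their values were seen. RefSeq (ARS1.2) gave the same symbol for 52 of the 53 member rows whose description holds an NCBI gene number. Rows sharing a symbol are uncertain, since unique mapping could divide reads between them. Python 3.11.15, pandas 2.3.3, numpy 2.4.6 and matplotlib 3.10.9 were used. A few results on single genes are not reported here.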

Additional observations from a re-analysis of the deposited data

Results flagged for a closer look

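Within-group outliers were looked for in 46 values, over 264 groups of 4 or 5 samples, as a highest or lowest sample whose gap to its neighbour was large for the group's range. Such gaps stood in 29 groups (11.0%). The limit gives about 1 in 20 for normally distributed values that were not selected. Many rows here were named for their values in these data, and FPKM were used without logs, so no excess is read from the count. No member's fertility difference was found to vary between stages at an adjusted p of 0.05 (142 interaction tests in limma).

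LLO 4 stood above the other LLO samples in 9 rows. In 8 further rows its FPKM was 102 in RPL19 ENSCHIG00000011685, 54.5 in RPS15A ENSCHIG00000011047, 161 in RPS15A ENSCHIG00000002492, 44.9 in RPS23 ENSCHIG00000006745, 64.9 in RPL7 ENSCHIG00000012399, 45.5 in RPS10 ENSCHIG00000008222, 97.4 in RPS3A ENSCHIG00000008355 and 210.2 in RPS6 ENSCHIG00000008209. The nearest LLO samples had 0.170 to 44.7 FPKM in them. In RPL3, a core protein of the peptidyl transferase centre, LLO 4 had 121 FPKM against 30.8 in the nearest.

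LMO 3 stood above its group in RPL36AL (2148 FPKM, nearest 1050.5), RPL26 (944, nearest 547), RPS27 (303, nearest 131), the leading row of RPS23 (839.7, nearest 576) and RPS28 ENSCHIG00000009632 (165, nearest 34.8). Other samples numbered 3 were set apart too. LLO 3 had 57.2 FPKM in RPL38 ENSCHIG00000012246, LSO 3 had 1320.1 FPKM in RPL21, and HSO 3 had the lowest RPS4X of its group (265 FPKM) and the highest share of ribosomal protein FPKM in symbols with 1 row (35.8%).

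RPLP0 was high in HLO 1 (159 FPKM) and LSO 1 (190.3 FPKM). RPSA was high in HLO 5 (266 FPKM) and LSO 5 (244 FPKM). RPL3 was high in LSO 1 (178 FPKM) and HSO 5 (73.4 FPKM). In HLO 2, RPL38 ENSCHIG00000012246 had 123 FPKM. At low levels, RPS10 ENSCHIG00000008222 had 2.14 FPKM in HLO 4, RPS3A ENSCHIG00000008355 had 9.18 in LMO 2, RPS15A ENSCHIG00000011047 had 0.182 in HSO 4 and RPL10L had 0.0938 in HMO 1, with the other samples of the last 2 groups listed at 0.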

How the results depend on the processing

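Over 626 settings for 34 results of single rows, none turned a direction, 525 kept the call and 101 lost it (leaving out several samples together is given apart below). Settings in which a row failed the filter gave no fit and are not counted there. With 1 sample left out, the third row of RPS23 was fitted in 6 of 10 settings between HMO and LMO. Between HSO and LSO it was fitted in 5 of 9. RPL7 ENSCHIG00000017520 was fitted in 6 of 10 between HMO and LMO. Counts of called member rows moved more. Array weights gave 23 between HLO and LLO, 12 over the stages and 41 in the interaction. A single fit over all samples gave 32 between HLO and LLO. With no filter on low values 4 rows were called between HSO and LSO. Over the stages median-of-ratios factors gave 1 and quantile normalization 3. With 1 row per symbol the counts were 1 between HMO and LMO, 0 between HSO and LSO, 2 over the stages and 3 in the interaction. Leaving out LLO 2 and 5 together, chosen after seeing the data, gave 1 call and medians of 0.016 over symbols with 1 row and -0.22 over symbols with several rows. Leaving out HMO 1, 3 and 4 gave 4 calls and leaving out LSO 1, 3 and 4 gave 0, with the log2 fold changes of the further rows of RPS6, RPL19 and RPL7 at 0.19, 0.43 and 0.30, the opposite direction. Without 1 sample the counts ranged from 3 to 27 between HLO and LLO, 15 to 20 between HMO and LMO, 0 to 17 between HSO and LSO, 0 to 25 over the stages and 15 to 43 in the interaction. The cause of these changes was not tested.

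Same-numbered samples of HLO and LLO had correlations of their deviations from -0.07 to 0.54, those of HMO and LMO from -0.43 to 0.67 and those of HSO and LSO from -0.51 to 0.74, so the numbers were not taken to pair the samples. In the large, medium and small follicles, the correlation was above 0.1 in 4 of 5, 4 of 5 and 2 of 4 such pairs. In 6 of 10, 7 of 10 and 3 of 8 samples the best match was the own number. With the replicate block the count was 14 between HLO and LLO, 20 between HMO and LMO, 19 between HSO and LSO, 12 over the stages and 34 in the interaction. At an adjusted p of 0.05, 10 member rows passed between HMO and LMO with the block, 30 with array weights and 1 each with median-of-ratios factors and with quantile normalization. Reads per gene were not analysed here, so the counting error at low FPKM was not judged.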
